A study of Mus musculus with 24 samples.

Results

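The variable (V) segments of the T-cell receptor beta chain, the Trbv genes, were followed in bulk RNA-seq of T cells sorted from mouse tumours. Members were all rows of the count table whose symbol begins with Trbv: 35 of 54957 gene rows. Of these, 22 are annotated as V genes and 13 as V pseudogenes. They lie on chromosome 6 between positions 40891229 and 41558452 of mm10. The tumours were grown from B16F10-OVA, a mouse melanoma line engineered to make the model antigen ovalbumin. CD8+ T cells and CD4+FOXP3+ regulatory T (Treg) cells were sorted from mice given 200 µg of an antibody to JAML (junctional adhesion molecule-like, a receptor found on some T cells), an antibody to PD-1 (an inhibitory receptor of T cells) or an isotype control antibody, with tumours taken 1 day later. Each of the 6 groups, CD8 or Treg cells after anti-JAML, anti-PD-1 or isotype antibody, held 4 libraries made by the Smart-seq2 protocol, which amplifies full-length polyA RNA, from fewer than 400 cells each. All came from tumour-bearing mice, so neither population has a tumour-free or uninjected control. Mouse strain, sex and age were not given in the sources used here. Whether the 4 libraries of a group stem from different mice is not stated in the labels, and p-values therefore reflect library-to-library spread that may in part be technical.

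Each beta chain gene is built in a developing T cell by joining a V, a D and a J segment, after which the joined exon is spliced to 1 of the constant genes, Trbc1 or Trbc2. A mature T cell and all its daughters then transcribe the V segment they joined, so the mixture of Trbv transcripts in a sample follows the mixture of clones and how much receptor RNA each cell holds. The V segment encodes the first and second complementarity-determining regions (CDR1 and CDR2), the receptor loops that mostly touch the MHC molecule, while the joint encodes CDR3, the loop that mostly touches the peptide. Expansion of a T-cell clone raises the share of its V segment. Trbv31 is unusual in that it lies downstream of the constant genes on the opposite strand and joins by inversion. The counts identify the V segment only, so a share is a share of Trbv reads and is neither a share of cells nor a clone, and fewer cells with a segment and less receptor RNA per cell cannot be told apart in bulk samples.

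The last 45 bases of the germline V exon are shown for the 13 segments that led a library or differed between CD8 and Treg libraries over all antibodies at an adjusted p below 0.05, because the segments differ where they enter CDR3. They were read from GENCODE mouse release M21 transcripts (mm10). Capitals run from the codon of the conserved cysteine that opens CDR3 to the end of the annotated exon. In each clone the end of the segment is trimmed and joined to D and J. Trbv3 has 21 capitals, against 14 to 17 in the others. Whether its last annotated bases belong to the stretch that is joined was not checked.
Trbv1 (chr6:40891841-40891885, plus strand): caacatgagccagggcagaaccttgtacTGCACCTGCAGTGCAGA
Trbv3 (chr6:41048784-41048828, plus strand): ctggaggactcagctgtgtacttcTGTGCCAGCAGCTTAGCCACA
Trbv5 (chr6:41062759-41062803, plus strand): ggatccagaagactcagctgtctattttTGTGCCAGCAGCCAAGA
Trbv13-1 (chr6:41116424-41116468, plus strand): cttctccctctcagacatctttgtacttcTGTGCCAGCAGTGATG
Trbv12-2 (chr6:41119320-41119364, plus strand): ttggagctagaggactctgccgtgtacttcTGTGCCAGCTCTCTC
Trbv13-2 (chr6:41121788-41121832, plus strand): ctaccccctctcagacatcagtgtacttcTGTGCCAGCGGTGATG
Trbv15 (chr6:41141614-41141658, plus strand): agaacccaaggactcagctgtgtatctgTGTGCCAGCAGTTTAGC
Trbv16 (chr6:41152186-41152230, plus strand): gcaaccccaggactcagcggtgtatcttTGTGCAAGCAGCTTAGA
Trbv19 (chr6:41179004-41179048, plus strand): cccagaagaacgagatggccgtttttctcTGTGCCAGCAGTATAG
Trbv20 (chr6:41188933-41188977, plus strand): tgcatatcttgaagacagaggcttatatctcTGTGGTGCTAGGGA
Trbv26 (chr6:41227949-41227993, plus strand): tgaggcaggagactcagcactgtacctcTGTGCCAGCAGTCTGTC
Trbv29 (chr6:41271837-41271881, plus strand): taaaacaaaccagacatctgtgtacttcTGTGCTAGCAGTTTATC
Trbv31 (chr6:41557691-41557735, minus strand): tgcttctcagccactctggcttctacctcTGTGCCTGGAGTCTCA
In 8 of these 13 segments the capitals begin with TGTGCCAGC, coding for cysteine, alanine and serine. Trbv16 and Trbv29 encode the same residues with another codon, as TGTGCAAGC and TGTGCTAGC. Trbv1 (TGCACCTGC), Trbv20 (TGTGGTGCT) and Trbv31 (TGTGCCTGG) also begin with cysteine. The next 2 residues are threonine and cysteine in Trbv1, glycine and alanine in Trbv20, and alanine and tryptophan in Trbv31.

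Within the Trbv12 and Trbv13 families the segments are close copies, which limits how well reads can be assigned. The last 120 bases of their V exons are given with capitals wherever the V genes of a family differ, at 9 positions in Trbv12 and 26 positions in Trbv13. The pseudogene Trbv12-3, with 11 counts in all, was not compared.
Trbv12-1 (chr6:41113948-41114067, plus strand): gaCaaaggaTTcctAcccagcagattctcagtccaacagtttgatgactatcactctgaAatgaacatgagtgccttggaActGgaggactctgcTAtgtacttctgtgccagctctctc
Trbv12-2 (chr6:41119245-41119364, plus strand): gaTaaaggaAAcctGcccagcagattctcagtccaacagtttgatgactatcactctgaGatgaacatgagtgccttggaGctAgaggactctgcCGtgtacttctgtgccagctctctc
Trbv13-1 (chr6:41116349-41116468, plus strand): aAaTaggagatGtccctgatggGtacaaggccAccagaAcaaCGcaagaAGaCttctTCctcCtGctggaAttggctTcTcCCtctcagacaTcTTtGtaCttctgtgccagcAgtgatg
Trbv13-2 (chr6:41121713-41121832, plus strand): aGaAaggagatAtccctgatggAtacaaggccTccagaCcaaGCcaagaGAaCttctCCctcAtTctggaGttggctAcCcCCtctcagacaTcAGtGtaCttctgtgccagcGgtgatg
Trbv13-3 (chr6:41130466-41130585, plus strand): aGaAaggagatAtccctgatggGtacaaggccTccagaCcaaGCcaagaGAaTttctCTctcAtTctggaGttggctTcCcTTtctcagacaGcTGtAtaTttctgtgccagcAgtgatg
Over the whole V exon, Trbv13-2 and Trbv13-3 were 91.8% identical with a longest shared run of 50 bases, and Trbv12-1 and Trbv12-2 were 89.1% identical with a run of 44 bases. Trbv13-1 was 87.8% identical to Trbv13-2 and 85.0% identical to Trbv13-3. All other pairs among the 231 pairs of V genes were at most 73.6% identical, with a median of 53.3%. Values of the 5 V genes of these families are therefore uncertain where reads could have been split between copies.

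Trbv reads were a small part of each library. Libraries held 11170918 to 22556460 counts in all, of which 2041 to 24153 fell on Trbv rows, with 254525 Trbv counts in total. A count had been made for 27 of the 35 members in at least 1 library, and for 8 pseudogenes in none. All 22 V genes were read. The 5 pseudogenes read were Trbv10, Trbv11, Trbv12-3, Trbv22 and Trbv24, named here for their small number, and those other than Trbv24 held 30 counts together. A count of 0 in a library allows a share of up to 0.0124% to 0.147% of Trbv counts, depending on its depth. Intervals below are 95% Wilson intervals of a share and cover counting error only, because several reads can stem from 1 amplified molecule and the protocol adds no molecular identifiers.

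The sort was checked against its markers. Cd8a, a chain of the CD8 co-receptor, had 1096 to 1898 CPM (counts scaled to a common TMM-normalized library size) in CD8 libraries, against 0 to 0.0761 CPM in Treg libraries. Cd8b1, its other chain, had 679 to 1246 CPM in CD8 libraries and was low but not absent in Treg libraries, at 12.3 to 48.3 CPM. Cd4 had 195 to 443 CPM in Treg libraries, against at most 0.116 CPM in CD8 libraries. Foxp3, the transcription factor that defines Treg cells, was at 0 counts in all 12 CD8 libraries, against 40.6 to 169 CPM in Treg libraries. Lyz2, a macrophage and monocyte gene, stood apart in CD8 anti-JAML library 2 at 412 CPM and in Treg anti-PD-1 libraries 1 and 4 at 658 and 866 CPM, against at most 112 CPM elsewhere. Lyz2 summed with Csf1r, C1qa, C1qb, C1qc, Cd68 and Adgre1 reached at most 439 CPM in CD8 anti-JAML libraries and 1083 CPM in Treg anti-PD-1 libraries. In CD8 anti-JAML library 2 the sum was thus nearly all Lyz2. Whether the Lyz2 reads came from macrophages or monocytes, and their part in the Trbv values, was not tested. Results without these libraries are given where they differ. The hemoglobin genes Hbb-bs, Hba-a1 and Hba-a2, summed, had a median of 0 CPM in CD8 and 0.0261 CPM in Treg libraries. They reached 457 CPM in a CD8 anti-JAML library and 1269 CPM in a Treg anti-JAML library, and their part was not tested either.

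CD8 libraries were led by many different segments, most of them strongly. After anti-JAML, library 1 was led by Trbv15 at 29.9% of its Trbv counts (29.4% to 30.5%), followed by Trbv16 at 25.5% and Trbv29 at 16.4%. Library 2 was led by Trbv29 at 30.1% (29.3% to 31.0%), library 3 by Trbv31 at 47.4% (46.5% to 48.2%), and library 4 by Trbv16 at only 16.4% (15.7% to 17.1%). No segment led more than 1 of these 4 libraries. After anti-PD-1 the leaders were Trbv16 at 32.2% (31.4% to 33.0%) in library 1, Trbv12-2 at 21.0% (19.6% to 22.5%) in library 2, Trbv1 at 45.1% (44.2% to 46.0%) in library 3 and Trbv20 at 27.4% (26.4% to 28.6%) in library 4. Again each library had a different leader. After isotype antibody, Trbv12-2 led library 1 at 24.2% (22.4% to 26.1%), Trbv13-1 led library 2 at 24.8% (23.5% to 26.1%), and Trbv19 led libraries 3 and 4 at 32.7% (31.4% to 33.9%) and 38.6% (37.5% to 39.8%). In all, 9 different segments led the 12 CD8 libraries.

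Treg libraries were led by few segments and less strongly. Trbv13-2 led 7 of the 12 Treg libraries, while Trbv3 and Trbv1 led 2 each and Trbv13-1 led 1. After anti-JAML the leading shares were 27.9% (Trbv1), 16.7% (Trbv13-2), 18.9% (Trbv3) and 14.2% (Trbv13-2) in libraries 1 to 4. After anti-PD-1 they were 16.3% (Trbv3), 15.2% (Trbv1), 19.2% (Trbv13-1) and 19.2% (Trbv13-2), and after isotype antibody Trbv13-2 led all 4 libraries at 18.03%, 16.9%, 15.3% and 18.2%. The leader held over 25% of Trbv counts in 8 CD8 libraries and in 1 Treg library, anti-JAML library 1. This can be seen in the heat map of shares as isolated dark cells on the CD8 side and as bands along Trbv13-2, Trbv3 and Trbv1 on the Treg side.

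**Figure D1:**
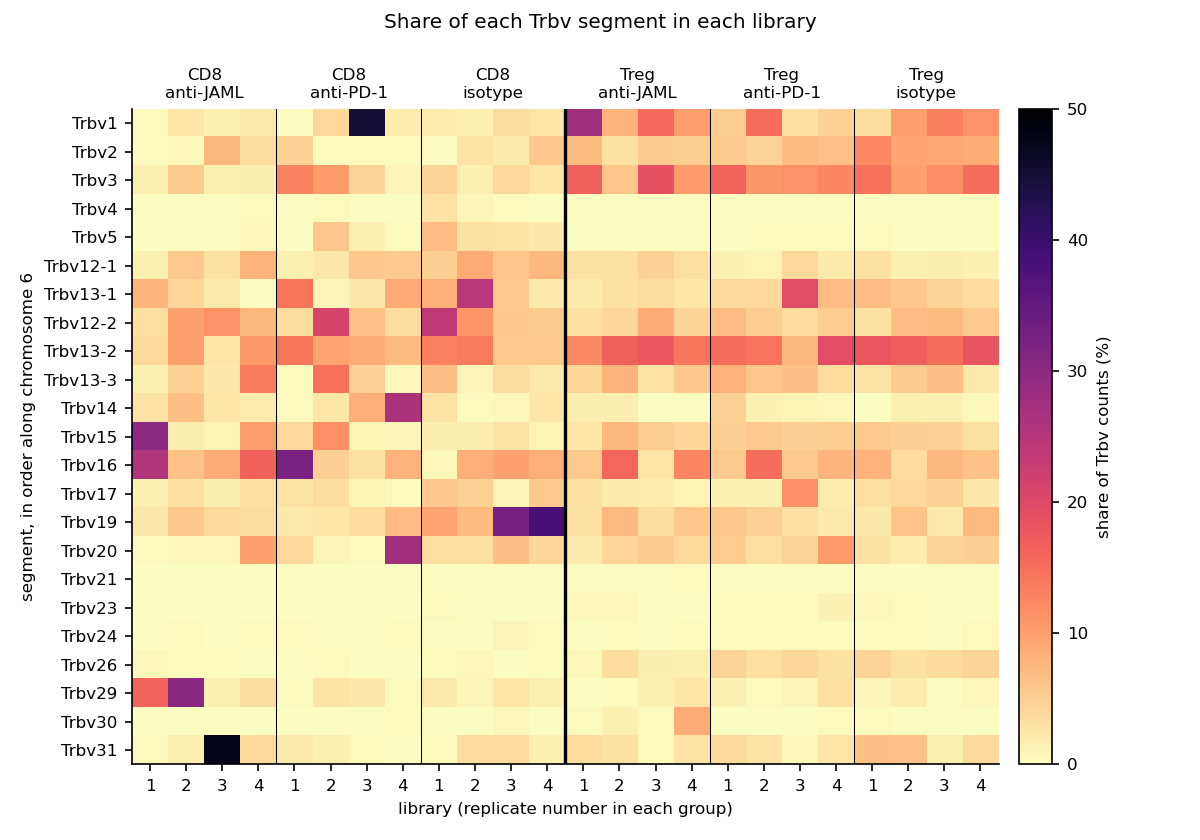
Share of each Trbv segment (colour, % of a library's Trbv counts) in the 24 libraries, CD8 on the left of the thick line and Treg on its right, with the 22 V genes and the pseudogene Trbv24 in order along chromosome 6. The darkest cells are Trbv31 at 47.4% in CD8 anti-JAML library 3 and Trbv1 at 45.1% in CD8 anti-PD-1 library 3, whereas the highest Treg share is Trbv1 at 27.9% in anti-JAML library 1.

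The spread of counts over the segments was summarised by the effective number, the number of equally used segments that would give the same Shannon entropy, and by evenness, that entropy divided by its maximum for the 27 segments read. After anti-JAML the effective numbers in CD8 libraries 1 to 4 were 7.49, 10.96, 7.22 and 12.6, against 10.8, 14.2, 11.4 and 14.4 in Treg libraries. After anti-PD-1 they were 8.50, 11.7, 7.83 and 8.11 in CD8 libraries, against 14.3, 13.0, 13.5 and 14.0 in Treg libraries. After isotype antibody they were 11.9, 11.4, 11.7 and 9.92 in CD8 libraries, against 13.2, 14.4, 13.2 and 12.8 in Treg libraries. Within anti-PD-1 and within isotype, every CD8 library lay below every Treg library, and after anti-JAML the groups overlapped.

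Over all antibodies the effective number averaged 9.95 ± 1.99 in CD8 libraries and 13.3 ± 1.17 in Treg libraries (SD, n = 12 each). Evenness averaged 0.691 ± 0.0629 in CD8 libraries and 0.783 ± 0.0281 in Treg libraries (SD, n = 12 each). Of the 12 CD8 libraries, 6 lay below the lowest Treg effective number of 10.8, and 10 Treg libraries lay above the highest CD8 value of 12.6. The share of the leading segment averaged 30.8% ± 9.25 in CD8 libraries and 18.01% ± 3.52 in Treg libraries (SD, n = 12 each). With the V genes of the Trbv12 and Trbv13 families each summed, the gap was smaller, with mean leading shares of 33.5% in CD8 and 26.9% in Treg libraries. The mean effective numbers were then 7.62 and 10.03. These are descriptions of the libraries, and no p-value is given for a score over the segments. The order of the means was the same at equal depth: thinning every library to 2041 Trbv counts gave 9.92 effective segments in CD8 libraries and 13.2 in Treg libraries. Thinning evens out reads and not cells, whose number per library was given only as fewer than 400.

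**Figure D2:**
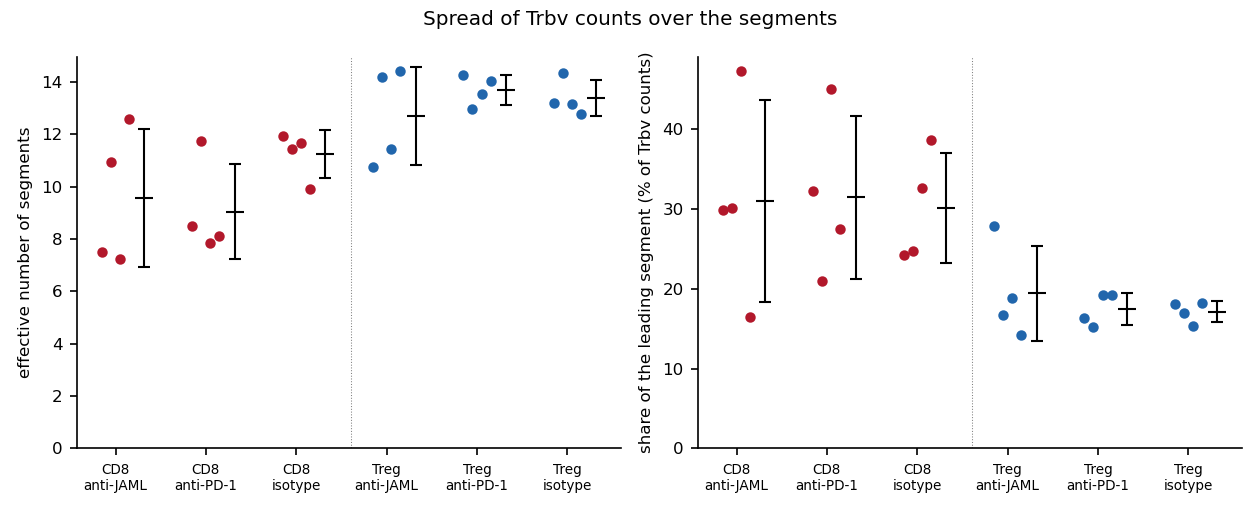
Effective number of Trbv segments (left) and share of the leading segment (right, % of Trbv counts) by group, with a point for each library and the mean ± SD of 4 libraries beside it, CD8 in red and Treg in blue. Treg anti-PD-1 and isotype libraries sit at 12.8 to 14.4 effective segments, while CD8 libraries run from 7.22 to 12.6. Treg anti-JAML libraries run from 10.8 to 14.4 and overlap the CD8 libraries.

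Within CD8 cells, evenness averaged 0.676 ± 0.0838 after anti-JAML, 0.664 ± 0.0563 after anti-PD-1 and 0.733 ± 0.0254 after isotype antibody (SD, n = 4 each). The 3 ranges overlapped: 0.5999 to 0.768, 0.625 to 0.747 and 0.696 to 0.752. Within Treg cells, evenness averaged 0.769 ± 0.0452 after anti-JAML, 0.794 ± 0.0128 after anti-PD-1 and 0.787 ± 0.0152 after isotype antibody (SD, n = 4 each), again with overlapping ranges.

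Profiles were compared between libraries by their overlap, the sum over segments of the lower of the 2 shares, which is 100% for identical profiles. Pairs of CD8 libraries overlapped by a median of 45.3% (28.3% to 82.0%, 66 pairs), pairs of Treg libraries by 75.2% (60.8% to 84.7%, 66 pairs), and a CD8 with a Treg library by 51.9% (29.2% to 70.8%, 144 pairs). Among the 6 pairs of CD8 libraries within a group, the median overlap was 46.6% (32.2% to 55.0%) after anti-JAML, 39.7% (30.1% to 46.4%) after anti-PD-1 and 57.6% (51.8% to 82.0%) after isotype antibody. Among the 6 pairs of Treg libraries within a group it was 70.4% (63.4% to 81.0%) after anti-JAML, 72.4% (64.6% to 79.2%) after anti-PD-1 and 82.5% (77.7% to 84.7%) after isotype antibody. CD8 and Treg libraries with the same antibody and replicate number overlapped by a median of 51.3% (12 pairs), against 51.9% for all others (132 pairs). The closest CD8 pair was isotype libraries 3 and 4, at 82.0%. Their profiles were not identical, with Trbv13-1 at 5.49% (4.91% to 6.13%) in library 3 and 2.14% (1.82% to 2.50%) in library 4. These intervals cover counting error only, so they cannot tell whether both libraries stem from the same mouse.

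Segments varied more among CD8 than among Treg libraries. The median coefficient of variation of a V gene's share was 1.23 over CD8 libraries and 0.568 over Treg libraries, and the SD was higher in CD8 libraries for 16 of the 22 V genes. In CD8 libraries 13 segments passed a share of 10% at least once, against 8 in Treg libraries. Trbv31, for example, had a median share of 1.51% over CD8 libraries with a range of 0.173% to 47.4%, against a median of 2.93% with a range of 0.526% to 6.64% over Treg libraries. Trbv19 ranged from 2.06% to 38.6% with a median of 4.87% in CD8 libraries, against 2.01% to 7.39% with a median of 4.15% in Treg libraries. For both, the Treg libraries stayed within a narrow band while 1 or 2 CD8 libraries stood far above the others.

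**Figure D3:**
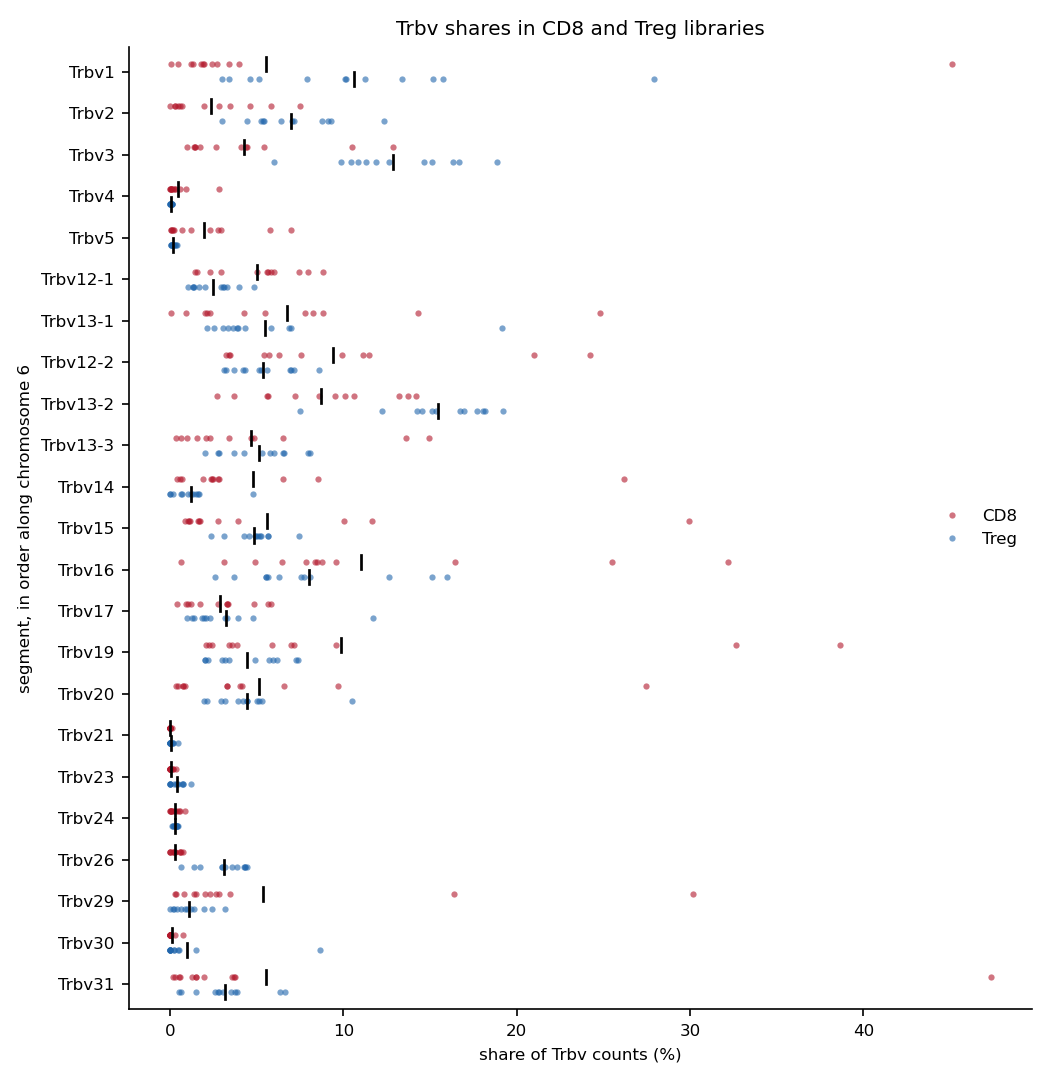
Share of Trbv counts (%) of each V gene and of Trbv24 in the 12 CD8 libraries (red, upper row of each pair) and the 12 Treg libraries (blue, lower row), with a black tick at the mean. Trbv1, Trbv2, Trbv3, Trbv13-2 and Trbv26 have lower means in CD8 libraries, and single CD8 libraries reach 20% or more for Trbv1, Trbv12-2, Trbv13-1, Trbv14, Trbv15, Trbv16, Trbv19, Trbv20, Trbv29 and Trbv31.

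The 10 segments with the highest mean share over the 24 libraries held 73.3% of all Trbv counts. Their mean shares in CD8 and Treg libraries were 8.73% and 15.5% for Trbv13-2, 11.02% and 8.02% for Trbv16, 4.27% and 12.9% for Trbv3, 5.52% and 10.6% for Trbv1, and 9.40% and 5.35% for Trbv12-2. The other 5 had 9.86% and 4.43% (Trbv19), 6.76% and 5.47% (Trbv13-1), 5.62% and 4.86% (Trbv15), 4.65% and 5.14% (Trbv13-3), and 5.13% and 4.42% (Trbv20) in CD8 and Treg libraries. Exonic lengths of the V genes differ, so levels were also ordered by the authors' TPM, a length-scaled unit. On TPM shares, Trbv16 led in CD8 libraries at 10.8%, followed by Trbv13-2 at 9.99%, and Trbv13-2 led in Treg libraries at 17.96%, followed by Trbv3 at 11.2%.

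Expression of each segment was tested between CD8 and Treg libraries, over all antibodies and within each antibody, as CPM in a fit across all genes. Over all antibodies, 23 members passed the filter on low counts, and 4 fell and 1 rose in CD8 relative to Treg libraries at an adjusted p below 0.05. Among all genes tested, 26.1% were called, 11.9% lower and 14.2% higher in CD8 libraries, so 5 of 23 members is no more than the share among all genes. Of the tested members, 9 had a positive log2 fold change, and the median over the tested members was -0.37, against -0.01 over all genes tested. Trbv4, Trbv21, Trbv23 and Trbv30, named here for this reason, passed the filter only through the population where they were higher. The number of positive values and the median are therefore a description.

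Trbv26 fell most among the called segments. It ranged from 0 to 11.7 CPM with a median of 1.15 CPM in CD8 libraries, with 3 libraries at 0 counts, against 3.79 to 38.8 CPM with a median of 20.9 CPM in Treg libraries. Its log2 fold change was -3.61 ± 0.68 (SE, adjusted p = 0.000286), and it stayed past the threshold in all 33 alternative fits of this comparison. CD8 anti-JAML libraries 1 and 3, at 11.7 and 4.71 CPM, were above Treg anti-JAML library 1 at 3.79 CPM, so the groups overlapped, and no other CD8 library reached the lowest Treg library.

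Trbv3 was at 3.71 to 111 CPM with a median of 14.6 CPM in CD8 libraries, against 40.3 to 144 CPM with a median of 93.5 CPM in Treg libraries (log2 fold change -2.02 ± 0.38 SE, adjusted p = 0.000286). Trbv13-2 had 16.5 to 123 CPM with a median of 40.0 CPM in CD8 libraries, against 31.6 to 155 CPM with a median of 114 CPM in Treg libraries (log2 fold change -1.13 ± 0.28 SE, adjusted p = 0.00404). Both segments were called in every alternative fit that measured them, 33 for Trbv3 and 32 for Trbv13-2. CD8 anti-PD-1 library 1 held the highest CD8 value of both, and the other 11 CD8 libraries were all below the Treg median of both.

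The Trbv1 call lay close to the threshold. It ran from 0.365 to 292 CPM with a median of 8.49 CPM in CD8 libraries, against 12.7 to 167 CPM with a median of 69.4 CPM in Treg libraries (log2 fold change -1.70 ± 0.60 SE, adjusted p = 0.0378). CD8 anti-PD-1 library 3 alone held 292 CPM, and without it the log2 fold change was -3.04 (adjusted p = 1.27e-05). The call ended, at an adjusted p of 0.0502 to 0.0641, when any of 10 other libraries was left out: Treg isotype 2 or 3, Treg anti-PD-1 2, Treg anti-JAML 1 or 3, CD8 isotype 1 or 2, CD8 anti-PD-1 2, or CD8 anti-JAML 1 or 3. The log2 fold change in those 10 fits was -1.68 to -1.57. The call also ended without Treg anti-PD-1 libraries 1 and 4 together, which were high in Lyz2 (log2 fold change -1.77, adjusted p = 0.0528).

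Trbv5 was the called segment that rose. It had 0.502 to 13.4 CPM with a median of 6.41 CPM in CD8 libraries, against 0.304 to 2.23 CPM with a median of 0.942 CPM in Treg libraries (log2 fold change 2.19 ± 0.57 SE, adjusted p = 0.00570). All 292 bases of its V exon lie within exons of a long noncoding RNA gene, 5830405F06Rik, on the same strand, as do all 295 bases of the V exon of Trbv4, so counts of these segments could have been lost to or split with that gene. 5830405F06Rik was itself higher in CD8 libraries (log2 fold change 4.82 ± 1.17 SE, adjusted p = 0.00389), with 3.00 ± 3.33 CPM in CD8 libraries and 0.143 ± 0.296 CPM in Treg libraries (SD, n = 12 each). Most Treg libraries had 0 counts of it, and the highest had 16. It was thus tested only because of its CD8 level, and its direction is a description. Whether the Trbv5 difference comes from reads of this transcript was not tested.

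**Figure D4:**
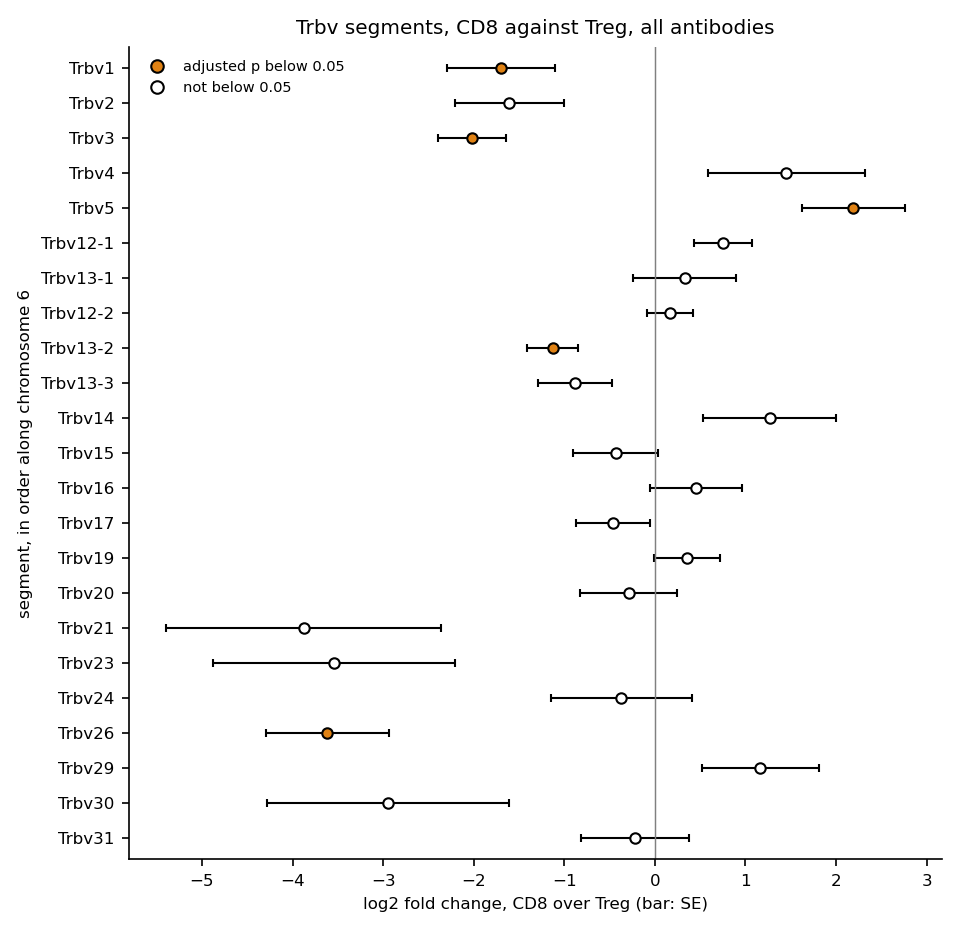
Log2 fold change of each of the 23 tested Trbv segments, CD8 over Treg, over all antibodies (point) with its SE (bar), in order along chromosome 6. Filled points mark the 5 segments with an adjusted p below 0.05: Trbv1, Trbv3, Trbv13-2 and Trbv26 lie left of 0 and Trbv5 right of it.

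Among the other segments of the 10 most counted, no call was made. The log2 fold changes were 0.45 ± 0.51 for Trbv16, 0.17 ± 0.25 for Trbv12-2, 0.35 ± 0.36 for Trbv19, 0.33 ± 0.57 for Trbv13-1, -0.43 ± 0.47 for Trbv15, -0.88 ± 0.41 for Trbv13-3 and -0.29 ± 0.54 for Trbv20 (SE, adjusted p between 0.120 and 0.762). Single libraries held several of these values up: without CD8 anti-JAML library 1, Trbv15 was at -1.13 (adjusted p = 0.0365), and without CD8 anti-JAML library 4, Trbv13-3 was at -1.14 (adjusted p = 0.0425). Over all alternatives, the adjusted p of Trbv15 ran from 0.0365 to 0.863 and that of Trbv13-3 from 0.0324 to 0.851.

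When Trbv rows were scaled to the library's own Trbv total, so that a fold is a fold of share, 6 of 23 segments were called, where 26.1% of all genes were called. Trbv26, Trbv3, Trbv13-2 and Trbv5 were among them, joined by Trbv2 and by Trbv12-1, which is named here after its values were seen, while Trbv1 was not (log2 fold change -1.50, adjusted p = 0.0514). Over the alternatives for Trbv1, the adjusted p ran from 1.27e-05 to 0.0854.

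Among isotype libraries, 6 of 20 tested members were called, against 15.3% of all genes tested. Of these, 5 were lower in CD8 libraries, where 7.12% of all genes were called, and 1 was higher, where 8.21% were. Among the 6, Trbv26 and Trbv5 passed the filter only through the population where they were higher. The counts are therefore a description. Trbv3 had 8.51, 5.29, 15.9 and 11.8 CPM in CD8 libraries, against 111, 90.3, 120 and 96.7 CPM in Treg libraries (log2 fold change -3.40 ± 0.34 SE, adjusted p = 0.000404). Trbv13-2 had 25.4, 52.2, 21.9 and 25.2 CPM in CD8 libraries, against 137, 155, 154 and 116 CPM in Treg libraries (-2.24 ± 0.30 SE, adjusted p = 0.00169). Neither segment's groups overlapped.

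Trbv1 was at 3.69, 5.03, 13.2 and 12.01 CPM in CD8 isotype libraries, against 25.6, 92.7, 135 and 72.1 CPM in Treg isotype libraries (-3.32 ± 0.59 SE, adjusted p = 0.00609). Voom ended this call (-3.14, adjusted p = 0.0831). Trbv15 was at 3.21, 6.57, 10.9 and 4.55 CPM in CD8 libraries, against 42.8, 45.6, 45.8 and 19.8 CPM in Treg libraries (-2.68 ± 0.48 SE, adjusted p = 0.00621). Trbv26 was at 0.567, 2.30, 0 and 1.20 CPM in CD8 libraries, against 32.8, 27.6, 38.8 and 27.6 CPM in Treg libraries (-5.02 ± 0.99 SE, adjusted p = 0.00958). In all 3 segments each CD8 library was below each Treg library. For Trbv26 only 2 CD8 libraries reached the count level of the filter, against 4 Treg libraries, so it was tested only because of its Treg level and its direction is a description. These libraries also differed in summed Trbv, which was lower in CD8 libraries, and on the share scale the Trbv13-2 call ended (-0.85, adjusted p = 0.114, with a range of 1.56e-11 to 0.114 over its alternatives).

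Trbv5 was higher in CD8 isotype libraries, at 13.4, 11.3, 10.9 and 10.3 CPM, against 2.23, 1.38, 0.356 and 0.646 CPM in Treg isotype libraries (3.23 ± 0.83 SE, adjusted p = 0.0281). It reached the count level of the filter in 4 CD8 and 3 Treg libraries, where 4 libraries were needed. It was thus tested only because of its CD8 level, and its direction is a description. The call ended, at an adjusted p of 0.0673 to 0.0911, when any of the 4 CD8 isotype libraries was left out, while the fold change stayed between 2.94 and 3.77 over all libraries left out.

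After anti-PD-1, 1 of 20 tested members was called, Trbv26, against 7.83% of all genes, 4.21% lower and 3.63% higher in CD8 libraries. It had 1.53, 0.983, 1.10 and 0 CPM in CD8 libraries, against 32.4, 14.0, 18.03 and 13.2 CPM in Treg libraries (-4.42 ± 0.92 SE, adjusted p = 0.0189). The groups did not overlap. Trbv26 reached the count level of the filter in 3 CD8 and 4 Treg libraries, where 4 were needed. It was thus tested only because of its Treg level, and its direction is a description. Without CD8 anti-PD-1 library 1, Trbv2 was called as well, making 2 segments, where 3.18% of all genes were called.

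After anti-JAML, 2 of 20 tested members were called, Trbv1 and Trbv30, both lower in CD8 libraries, against 2.08% of all genes, 1.35% lower and 0.728% higher. Trbv1 had 6.84, 21.2, 10.04 and 15.2 CPM in CD8 libraries, against 167, 52.8, 120 and 87.2 CPM in Treg libraries (-3.08 ± 0.47 SE, adjusted p = 0.0110), with no overlap. Trbv30 had 3 counts in all in CD8 libraries, in library 2, against 1514 counts in Treg libraries, of which 1247 were in library 4. The ratio of the 2 sums, each scaled by its TMM-normalized library sizes, was 0.00237 (exact 95% interval of counting error 0.000487 to 0.00693). The Trbv30 call (adjusted p = 0.0473) ended when any 1 of the 8 libraries was left out, at an adjusted p of 0.0522 to 0.221, so it rests on each of them. None of the 4 CD8 libraries reached the count level of the filter for Trbv30, against 4 Treg libraries, so it was tested only because of its Treg level and had to be lower in CD8 libraries, and the count of 2 is a description.

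The calls within 1 antibody group were not shown to differ between antibodies. In the tests of whether an antibody's effect differed between populations (interaction terms over 24 libraries), 0 members were called for anti-JAML and 0 for anti-PD-1, where 0% of all genes were called in each. Unadjusted p-values below 0.05 were found for 7 and 3 of 23 members. With DESeq2, 2 members were called for anti-JAML, Trbv15 and Trbv31, where 1.94% of all genes were called, and 0 for anti-PD-1, where 1.38% were. With voom 0 were called in each, where 0% and 0.00685% of all genes were. The smallest p for anti-JAML was that of Trbv15, with a difference of effects of 4.63 ± 1.20 (log2, SE, adjusted p = 0.368, and 0.00230 to 0.851 over its alternatives), and 2.54 without CD8 anti-JAML library 1. For anti-PD-1 it was Trbv1, at 4.41 ± 1.49 (adjusted p = 0.570), and 0.41 without CD8 anti-PD-1 library 3.

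Antibody groups were then compared within each population. In CD8 cells, 20 members were tested and 0 were called in each of the 3 comparisons, where 0% of all genes were called for anti-JAML against isotype, 0% for anti-PD-1 against isotype and 0.00791% for anti-JAML against anti-PD-1. Unadjusted p-values were below 0.05 for 8, 4 and 4 members. DESeq2 called 2, 0 and 2 members in these comparisons, where 1.7%, 0.127% and 2.07% of all genes were called. Voom called 0 in each, where 0%, 0% and 0.0316% of all genes were called. For anti-JAML against isotype the log2 fold change was positive in 17 of 20 members and its median was 1.10, against 0.09 over all genes, but that median was -0.51 once Trbv rows were scaled to the Trbv total.

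Trbv29 had the smallest p in both comparisons of anti-JAML in CD8 cells. It stood at 257, 264, 12.6 and 26.7 CPM after anti-JAML, against 2.99, 4.86, 15.04 and 1.03 CPM after anti-PD-1 and 3.87, 3.16, 10.3 and 6.19 CPM after isotype antibody. Libraries 1 and 2 of the anti-JAML group were far above all others, and library 3 fell between the anti-PD-1 libraries. The log2 fold change was 4.61 ± 1.03 for anti-JAML against isotype (SE, adjusted p = 0.244, and 0.00120 to 0.554 over its alternatives) and 4.56 ± 1.02 for anti-JAML against anti-PD-1 (adjusted p = 0.131, and 0.000917 to 0.412 over its alternatives). In both, DESeq2 was the only alternative that called it.

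Among CD8 anti-JAML libraries, Trbv31 was highest in library 3 and Trbv15 in libraries 1 and 4. Trbv31 was at 8.73, 13.4, 391 and 28.7 CPM in CD8 anti-JAML libraries, against 0.567, 14.1, 13.9 and 5.62 CPM in CD8 isotype libraries (3.72 ± 1.32 SE, adjusted p = 0.354). Trbv15 was at 471, 14.0, 9.10 and 77.2 CPM in CD8 anti-JAML libraries, against 3.21, 6.57, 10.9 and 4.55 CPM in CD8 isotype libraries (4.53 ± 1.16 SE, adjusted p = 0.290). In anti-PD-1 libraries Trbv19 had the smallest p, at 17.8, 4.16, 23.2 and 26.8 CPM, against 18.4, 27.0, 128 and 173 CPM in isotype libraries (-2.25 ± 0.68 SE, adjusted p = 0.856). Isotype libraries 3 and 4 stood far above the other 6 libraries.

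In Treg cells, 22 members were tested and 0 were called in each comparison, where 0% of all genes were called for anti-JAML against isotype, 0.0231% for anti-PD-1 against isotype and 0% for anti-JAML against anti-PD-1. Unadjusted p-values were below 0.05 for 4, 3 and 3 members. DESeq2 called 0, 1 and 0 members in these comparisons, where 0.67%, 4.77% and 0.47% of all genes were called. Voom called 0 in each, where 0%, 0.0462% and 0% of all genes were called.

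Trbv2 had the smallest p against isotype after both antibodies, in comparisons that share the isotype libraries. It was at 42.6, 19.9, 41.6 and 45.3 CPM after anti-JAML, at 39.3, 19.5, 29.8 and 28.4 CPM after anti-PD-1, and at 93.5, 85.1, 92.0 and 56.2 CPM after isotype antibody. Each isotype library was above each library of the other groups. The log2 fold change was -1.49 ± 0.31 after anti-PD-1 (SE, adjusted p = 0.0915, and 0.000683 to 0.281 over its alternatives) and -1.13 ± 0.31 after anti-JAML (adjusted p = 0.853). Without Treg isotype library 4 the anti-PD-1 value was -1.63 (adjusted p = 0.0404). Over all its alternatives that value ran from -1.71 to -0.77. Summed Trbv in Treg libraries was also lower, at 509 ± 151 CPM after anti-PD-1 and 725 ± 117 CPM after anti-JAML, against 830 ± 163 CPM after isotype antibody (SD, n = 4 each). A lower CPM of Trbv2 is therefore not by itself a lower share of Trbv counts. Between anti-JAML and anti-PD-1, Trbv1 had the smallest p, at 167, 52.8, 120 and 87.2 CPM after anti-JAML, against 37.7, 66.7, 12.7 and 20.5 CPM after anti-PD-1 (1.63 ± 0.57 SE, adjusted p = 0.765).

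Summed Trbv levels are given as a description, with no test of the sum. The sum over all members was 1573, 877, 826 and 770 CPM in CD8 anti-JAML libraries, 866, 174, 647 and 386 CPM in CD8 anti-PD-1 libraries, and 193, 380, 391 and 446 CPM in CD8 isotype libraries. Each anti-JAML library was above each isotype library, and the anti-PD-1 libraries spanned both. In Treg cells the sum was 597, 669, 765 and 867 CPM after anti-JAML, 735, 439, 422 and 442 CPM after anti-PD-1, and 759, 915, 1007 and 640 CPM after isotype antibody. Over all antibodies it averaged 627 ± 390 CPM in CD8 libraries and 688 ± 191 CPM in Treg libraries (SD, n = 12 each), a difference smaller than the spread.

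In CD8 cells the constant genes were Trbc1 at 955 ± 367 CPM after anti-JAML, 923 ± 411 CPM after anti-PD-1 and 579 ± 128 CPM after isotype antibody, and Trbc2 at 1416 ± 111, 988 ± 361 and 1693 ± 107 CPM in the same groups (SD, n = 4 each). Neither was called between CD8 groups (log2 fold change of anti-JAML against isotype 0.76 for Trbc1, adjusted p = 0.414, and -0.22 for Trbc2, adjusted p = 0.726). Their sum had 2371 ± 461 CPM after anti-JAML, 1911 ± 468 CPM after anti-PD-1 and 2271 ± 124 CPM after isotype antibody (SD, n = 4 each). Trbv counts per Trbc count, a ratio added after seeing the data, were 0.553, 0.485, 0.313 and 0.349 in CD8 anti-JAML libraries, 0.458, 0.0835, 0.270 and 0.301 in CD8 anti-PD-1 libraries, and 0.0880, 0.163, 0.162 and 0.208 in CD8 isotype libraries. In Treg cells the ratio stayed between 0.358 and 0.467 in all 12 libraries, and it averaged 0.286 ± 0.155 in CD8 libraries and 0.416 ± 0.0314 in Treg libraries (SD, n = 12 each). As background, the V and the constant segment of a productive beta chain lie on the same transcript.

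Trbv5 and the overlapping noncoding RNA had their highest CD8 group means after isotype antibody, where this ratio was lowest. Trbv5 was at 1.17, 0.976, 0.502 and 5.16 CPM after anti-JAML, 1.39, 10.002, 7.66 and 0.790 CPM after anti-PD-1, and 13.4, 11.3, 10.9 and 10.3 CPM after isotype antibody in CD8 libraries. 5830405F06Rik averaged 1.28 ± 1.84 CPM after anti-JAML, 1.00 ± 0.690 CPM after anti-PD-1 and 6.71 ± 3.01 CPM after isotype antibody in CD8 libraries (SD, n = 4 each). CD8 anti-PD-1 library 2, with the lowest ratio of that group, had its highest Trbv5 level. By contrast, CD8 anti-JAML library 1, with the highest CD8 ratio, had 3.91 CPM of 5830405F06Rik, above CD8 isotype library 4 at 3.41 CPM. What sets the ratio, and its part in the Trbv differences between CD8 groups, was not tested.

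**Figure D5:**
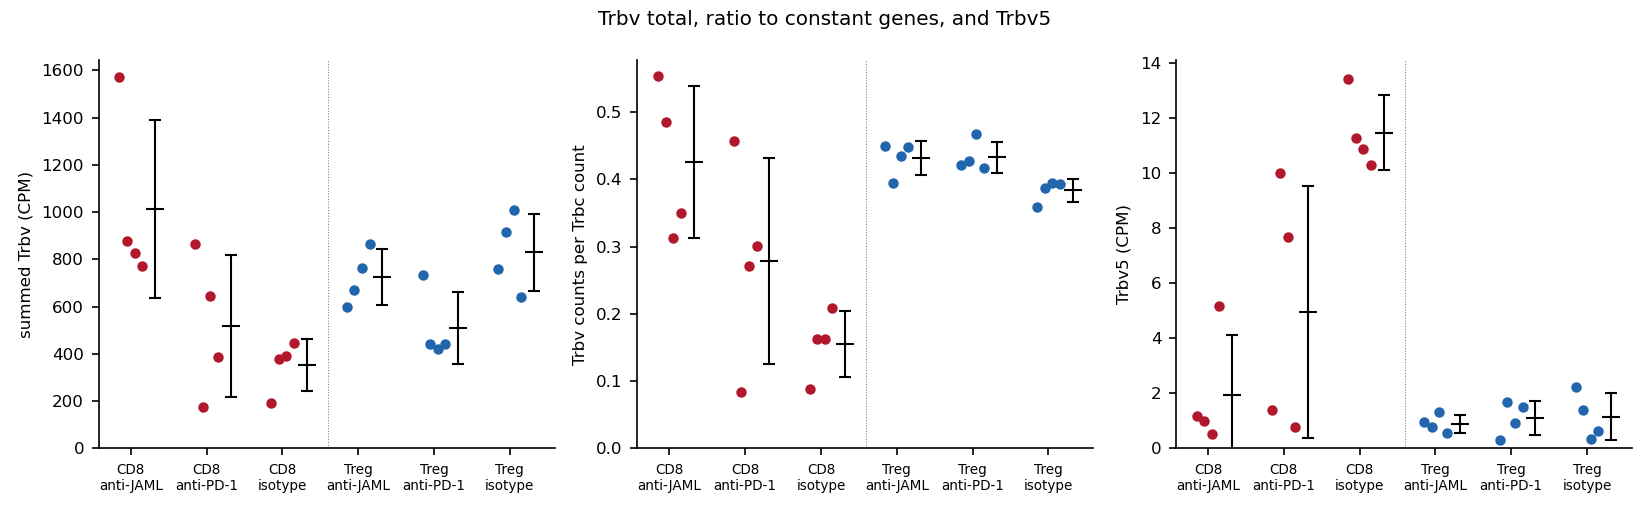
Summed Trbv (left, CPM), Trbv counts per Trbc1 and Trbc2 count (middle) and Trbv5 (right, CPM) by group, with a point for each library and the mean ± SD of 4 libraries beside it (drawn down to 0 at most), CD8 in red and Treg in blue. CD8 isotype libraries lie at 0.0880 to 0.208 in the middle panel and at 10.3 to 13.4 CPM in the right panel, where Treg libraries reach at most 2.23 CPM.

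Other receptor genes were compared between CD8 and Treg libraries in the same fit. Of the receptor genes on the list (Trac, Trbc1, Trbc2, Cd3d, Cd3e, Cd3g, Cd247, the Trbd and Trbj rows, Rag1, Rag2 and Dntt), 23 were tested over all antibodies, and 2 were lower and 1 higher in CD8 libraries, against 11.9% lower and 14.2% higher among all genes tested. Trbc1, a beta constant gene, was higher, at 819 ± 345 CPM in CD8 libraries and 562 ± 204 CPM in Treg libraries (log2 fold change 0.56 ± 0.17 SE, adjusted p = 0.0169). Within antibodies its log2 fold change was 0.79 ± 0.28 after anti-JAML (adjusted p = 0.258), 1.22 ± 0.33 after anti-PD-1 (adjusted p = 0.0512) and -0.49 ± 0.21 after isotype antibody (SE, adjusted p = 0.154). The interaction terms were not called (adjusted p = 0.368 for anti-JAML and 0.541 for anti-PD-1). Trac, the alpha constant gene, was lower, at 1246 ± 273 CPM in CD8 libraries and 1818 ± 445 CPM in Treg libraries (-0.53 ± 0.13 SE, adjusted p = 0.00432). Cd247, the zeta signalling chain, was lower, at 250 ± 34.6 CPM in CD8 libraries and 306 ± 45.1 CPM in Treg libraries (-0.29 ± 0.09 SE, adjusted p = 0.0252). Cd3d, Cd3e and Cd3g, the other signalling chains, had fold changes of -0.02, -0.07 and -0.11 and were not called, and nor was any of the 14 Trbj rows tested.

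The genes that carry out V(D)J joining were near absent in both populations. Rag1, a subunit of the recombinase, had counts in 0 CD8 libraries and in 1 Treg library, at 0.300 CPM. Rag2, the other subunit, had counts in 1 CD8 library, at 0.0687 CPM, and in 0 Treg libraries. Dntt, which adds bases at the joints, had counts in 1 CD8 library, at 6.01 CPM, and in 0 Treg libraries.

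The share of the 2 constant genes varied as well. The Trbc1 share of Trbc counts was 39.1% ± 8.58 in CD8 anti-JAML libraries, 47.6% ± 15.3 in CD8 anti-PD-1 libraries and 25.4% ± 4.95 in CD8 isotype libraries (SD, n = 4 each). The highest was 69.9% in CD8 anti-PD-1 library 2. In Treg libraries the Trbc1 share stayed between 26.5% and 40.4%.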

How the data were processed

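RNA-seq was measured in 24 libraries, 4 for each combination of CD8 or Treg cells with 1 of 3 antibodies, and groups were taken from the deposited labels. Reads were counted by the authors, who deposited 1 table of raw counts per gene and 1 table of TPM per gene (scaled for transcript length and library). The mm10 build, STAR 2.7.3a, fastp 0.20.1, deepTools 3.3.1 and SAMtools are listed, without their roles, per the submitters' processing notes. The counting tool, its strand setting and its treatment of reads matching several segments were not given in the sources used here. Reads that cross a V(D)J joint do not match the genome end to end, so counts can miss them.

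The members and lists were chosen with earlier results of these data known. Counts were tested with edgeR 4.0.16 in R 4.3.3 (quasi-likelihood F test, TMM normalization, filterByExpr at its settings of 10 for the minimum count and 15 for the minimum total), two-sided, with Benjamini-Hochberg adjustment over all genes tested and a threshold of 0.05. CD8 and Treg libraries were compared in all 24 libraries and in the 8 of each antibody, and antibodies in the 12 libraries of each population, where comparisons share groups. The SE of a log2 fold change was derived from the F statistic. Shares, entropy, overlaps and Wilson intervals were computed with Python 3.11.15, numpy 2.4.6 and pandas 2.3.3, and carry no p-value. Alternatives were DESeq2 1.42.0, voom in limma 3.58.1, RLE factors, scaling to the Trbv total, no filter, a replicate block, families summed, and libraries left out singly or in sets. Segments named are the 10 with the highest mean share, the leader of each library, the smallest p of each comparison and those past the threshold. Others are named only where stated or in figures, after their values were seen. Sequences and gene types came from GENCODE mouse release M21, which matched 35 of 35 members. Library totals were 11170918 to 22556460 counts. The scripts were tested on simulated data.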

Additional observations from a re-analysis of the deposited data

Results flagged for a closer look

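In 9 of 90 groups of 4 libraries, the highest or lowest library stood apart from the others, with a gap to its neighbour, as a part of the group's range, above the 95% critical value of Dixon's test. For independent, normally distributed values, such a gap arises in about 5% of groups, or 4.5 of these 90. Shares within a library depend on each other and need not be normally distributed. The 9 groups are therefore a description, and their number is no test against chance.

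Of the 9, 8 were in CD8 libraries and 7 concerned the share of a segment. Trbv1 held 45.1% in anti-PD-1 library 3, against 0.0422% to 3.99% in the other CD8 anti-PD-1 libraries. In the same group, Trbv16 held 32.2% in library 1, against 3.11% to 7.82% in the others. Trbv12-2 held 21.0% in library 2, against 3.39% to 6.27% in the others. Trbv20 held 27.4% in library 4, against 0.341% to 4.06% in the others. Each of the 4 CD8 anti-PD-1 libraries thus stood apart in the segment that led it.

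After anti-JAML, Trbv20 held 9.69% in CD8 library 4, against 0.435% to 0.753% in the others, and Trbv3 held 5.39% in CD8 library 2, against 1.44% to 1.72% in the others. After isotype antibody, Trbv16 held 0.637% in CD8 library 1, against 8.35% to 9.58% in the others, so this segment was nearly missing from a single library.

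The summed Trbv level was 1573 CPM in CD8 anti-JAML library 1, against 770 to 877 CPM in the other CD8 anti-JAML libraries. It was 735 CPM in Treg anti-PD-1 library 1, against 422 to 442 CPM in the other Treg anti-PD-1 libraries. The macrophage gene Lyz2 was at 658 CPM in that Treg library, and its part in the sum was not tested.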

How the results depend on the processing

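Over all antibodies, 5 segments were called between CD8 and Treg libraries, and 4 to 6 when each library was left out in turn. That range was 5 to 7 for isotype, 1 to 2 for each of anti-JAML and anti-PD-1, 0 to 1 for Treg anti-PD-1 against isotype and 0 for the other 7 comparisons. DESeq2 called 4 segments after anti-JAML and 2 after anti-PD-1 between CD8 and Treg libraries (6.23% and 15.9% of all genes), 2 for CD8 anti-JAML against isotype, 2 for CD8 anti-JAML against anti-PD-1, 1 for Treg anti-PD-1 against isotype and 2 for the difference of anti-JAML effects. Voom called 1 after anti-JAML and 2 after anti-PD-1 (2.54% and 9.11%). Without CD8 anti-JAML libraries 2 and 4, 1 segment was called after anti-JAML, where 1.7% of all genes were called. The causes were not tested.

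Samples with the same replicate number were not shown to be paired: deviations of CD8 and Treg libraries with the same antibody and number correlated above 0.1 in 1 of 12 pairs (r from -0.0842 to 0.129). With the replicate number as a block, 5 segments were called over all antibodies, 5 for isotype, 1 for anti-PD-1 and 0 for anti-JAML. Of all genes, 21.9%, 9.2%, 8.29% and 0.795% were called in these fits. With the block, Trbv5 over all antibodies had an adjusted p of 0.0517. The block turned the uncalled log2 fold changes of Trbv13-1 to -0.61 and of Trbv16 to -0.10, and voom turned them to -0.85 and -0.15. Leaving out single libraries gave -0.13 to 0.46 for Trbv13-1 and -0.25 to 0.58 for Trbv16. Scaled to the Trbv total, Trbv20 was at 0.12, calls over all antibodies were 2 higher and 4 lower in CD8 libraries, and those for isotype 3 higher and 4 lower, against 1 higher and 5 lower by CPM. Of all genes, 26.1% were called over all antibodies and 15.3% for isotype on that scale.

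Between CD8 and Treg libraries, the difference in evenness was -0.0988 to -0.0834 with single libraries left out, that in leading share 11.3 to 14.1 percentage points, that in summed Trbv -147 to -19.6 CPM, and that in Trbv counts per Trbc count -0.154 to -0.111. Summing the V genes of the Trbv12 and Trbv13 families gives no value for each of them, and it brought the mean leading shares to 33.5% in CD8 and 26.9% in Treg libraries. The lowest Trbv count, 2041 in CD8 isotype library 1, limits shares there to a floor of 0.147%.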
